A study of Mus musculus with 10 samples.

Results

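The nuclear factor I (NFI) family was followed in single-cell RNA sequencing of cortex from mouse embryos at E16.5, a stage late in the birth of cortical neurons. Its members are the 4 genes Nfia, Nfib, Nfic and Nfix, taken by name from the 31053 genes of the count tables, and all 4 were detected in every embryo. Embryos of 3 genotypes were sampled: Gatad2b WT (3 embryos), Het, which carries 1 copy of the stop allele of Gatad2b (Gatad2b stop/+, 4 embryos), and KO, which carries the allele on both copies (Gatad2b stop/stop, 3 embryos). The stop allele is a gene-trap allele inherited through the germline on a C57BL/6N-A tm1Brd background, so that every cell of an embryo carries it. Each library held the dissociated cortex of 1 embryo, prepared with droplet chemistry that tags the 3′ end of each RNA with a unique molecular identifier (UMI). Gatad2b encodes a subunit of the NuRD chromatin remodelling and histone deacetylase complex, and the comparison of genotypes asks how the NFI genes were expressed when that subunit was reduced.

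NFI proteins are transcription factors that bind DNA as dimers, at a palindrome whose arms read TTGGC. In the developing forebrain they are known for taking progenitors out of self-renewal, for switching on astrocyte genes, and for the maturation and axon growth of cortical neurons. Nfia and Nfib are required for the formation of the corpus callosum and for gliogenesis, and Nfix for the timing at which radial glia produce intermediate progenitors. Nfic is best known for its role in tooth root development. On GRCm38, with GENCODE vM21 gene models, Nfia (ENSMUSG00000028565) spans chr4:97772734-98118874 on the + strand and Nfib (ENSMUSG00000008575) chr4:82290173-82705750 on the − strand. Nfic (ENSMUSG00000055053) spans chr10:81396186-81455635 and Nfix (ENSMUSG00000001911) chr8:84699876-84800344, both on the − strand. The genes are 346.1, 415.6, 59.45 and 100.5 kb long in that order.

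Windows of 300 bases at the start sites of the members, 250 before and 50 after the start, were read from RefSeq (GRCm38.p6) to see whether the family's own recognition letters lie there. The windows below belong to the pair of members that moved in opposite directions in the inhibitory neurons described further on, with each TTGGC, or GCCAA on the other strand, in capitals.
Nfia, chr4:97581693-97581992, + strand: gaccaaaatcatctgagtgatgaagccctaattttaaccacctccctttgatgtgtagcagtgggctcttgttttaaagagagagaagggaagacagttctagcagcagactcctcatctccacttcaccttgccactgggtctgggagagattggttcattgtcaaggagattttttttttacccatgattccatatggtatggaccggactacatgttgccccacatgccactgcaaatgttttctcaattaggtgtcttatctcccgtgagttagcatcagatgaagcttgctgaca
Nfix, chr8:84772826-84773125, − strand: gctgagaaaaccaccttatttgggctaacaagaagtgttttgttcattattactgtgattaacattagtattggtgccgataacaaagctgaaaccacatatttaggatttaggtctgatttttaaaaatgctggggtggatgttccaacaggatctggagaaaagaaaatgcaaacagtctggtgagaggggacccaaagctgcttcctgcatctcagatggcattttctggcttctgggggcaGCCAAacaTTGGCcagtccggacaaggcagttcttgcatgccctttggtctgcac
The Nfia window held neither set of letters, and its RefSeq start lies upstream of the GENCODE interval given above. The Nfix window held both, 3 bases apart. The other 3 Nfix windows held 0, 1 and 1 matches, so the one shown held the most. The Nfic window held 0. All Nfix windows and the Nfic window lie inside the GENCODE intervals of their genes. Of all 32851 windows of this length, 46.7% held at least 1 match, and 0.0365% held the whole palindrome, TTGGC and GCCAA with any 5 bases between them. Such a match is a string of letters and not a measured binding site. Nfib had no entry in the table used.

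Cells were kept when they had at least 1000 UMIs and at most 10% of their UMIs from mitochondrial genes, which left 65779 of 80071 barcodes. Kept UMIs per embryo ranged from 82872641 to 123737385 and the median per cell from 10795 to 17077.5, and 993 cells (1.51%) shared their barcode with a cell of another library. Clusters were named from marker lists, and the name of each class below says which list its clusters were assigned to. The summed CPM of a list was highest in the class of its name for 7 of the 8 lists. The exception was Layer II-IV, whose 9 markers summed to 1927 CPM there and to 1966 in the subventricular zone class, so these markers alone do not set the class apart. The 9 subventricular zone markers summed to 2937 CPM in their own class and to 654 or less in each other class. The library names carry either of 2 prefixes, whose meaning is not given in the sources used here: WT embryos and Het4 share one, and Het1, Het2, Het3 and all KO embryos share the other. KO and WT share no prefix, so a direct difference between them cannot be told apart from one between prefixes. Changes are therefore also given between KO and the 3 Het embryos of the same prefix. Only Het4 links the WT prefix to the other genotypes. With the prefix as a covariate, Het vs. WT is thus Het4 against the WT embryos. KO vs. WT then adds the KO vs. Het step within the other prefix, so both values hinge on Het4. Het4 stood farthest from the other Het embryos, with a chi-square per degree of freedom of 99.4 to 137.5 over genes, against 13.6 to 38.0 for the other pairs of the same genotype. Over all cells, Gatad2b stood at 142, 132 and 138 counts per 1000000 UMIs (CPM) in WT1 to WT3, at 93.1, 88.1, 89.3 and 96.6 in Het1 to Het4, and at 49.5, 51.8 and 58.2 in KO1 to KO3. The 3 genotypes did not overlap, in the order of their intact copies. In KO vs. WT the fitted Gatad2b level was 0.399-fold. The trapping cassette of the allele lies in an intron between early coding exons and no exon is deleted. The 3′ tags read downstream of it. The paper names splicing past the cassette as a possible source of wild-type RNA, and the source of the KO tags was not tested. By western blot of cerebellum the paper could not detect the protein in Gatad2b stop/stop mice.

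In WT embryos each member had its own order of levels over 8 classes, from progenitors to layer neurons and inhibitory neurons. CPM values are relative to all UMIs of the class and are compared within a gene, since a 3′ UMI level does not rank different genes, and since the clusters were made from the same cells the class levels are a description without a test. Nfia was highest in the subventricular zone-like class, the intermediate progenitors, at 615 ± 36.2 CPM (SD, n = 3 WT embryos). It was next highest in radial glia-like cells (475 ± 43.6), Layer I-like cells (464 ± 37.6) and Layer V-VI-like neurons (441 ± 13.2), whose WT ranges overlapped from one to the next. Ganglionic eminence-like cells (256 ± 38.4) and Layer II-IV-like neurons (209 ± 5.91) followed, and the interneuron-like (99.9 ± 7.49) and striatal inhibitory-like (56.2 ± 7.46) classes were lowest, with no overlap between neighbours. Nfia thus spanned 10.9-fold from the highest class to the lowest.

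Nfib also peaked in the subventricular zone-like class, at 2644 ± 99.3 CPM, and was lowest in the striatal inhibitory-like class, at 546 ± 59.2, a 4.84-fold span (10.7-fold at the finer clustering resolution of 0.8). Unlike Nfia, it was higher in the neurons of every layer class (2275 ± 96.3 in Layer I, 2232 ± 75.6 in Layer V-VI, 1646 ± 95.8 in Layer II-IV) than in radial glia-like cells (1058 ± 62.8). Nfix had its 4 highest classes among the intermediate progenitors and layer neurons, from 1887 ± 202 CPM in the subventricular zone to 1540 ± 69.4 in Layer I, with overlapping WT ranges between neighbours. A step separated these from radial glia-like cells (642 ± 59.1) and ganglionic eminence-like cells (565 ± 61.0), and from 306 ± 26.8 in interneurons and 173 ± 26.1 in striatal inhibitory cells. The Nfix span was 10.9-fold, and 18.2-fold at resolution 0.8. Nfic had another order, highest in radial glia and the ganglionic eminence and lowest in neurons: 59.0 ± 3.03 CPM in radial glia, 51.9 ± 3.10 in the ganglionic eminence and 48.5 ± 3.10 in the subventricular zone, against 26.3 ± 0.534 or less in each neuron class.

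**Figure D1:**
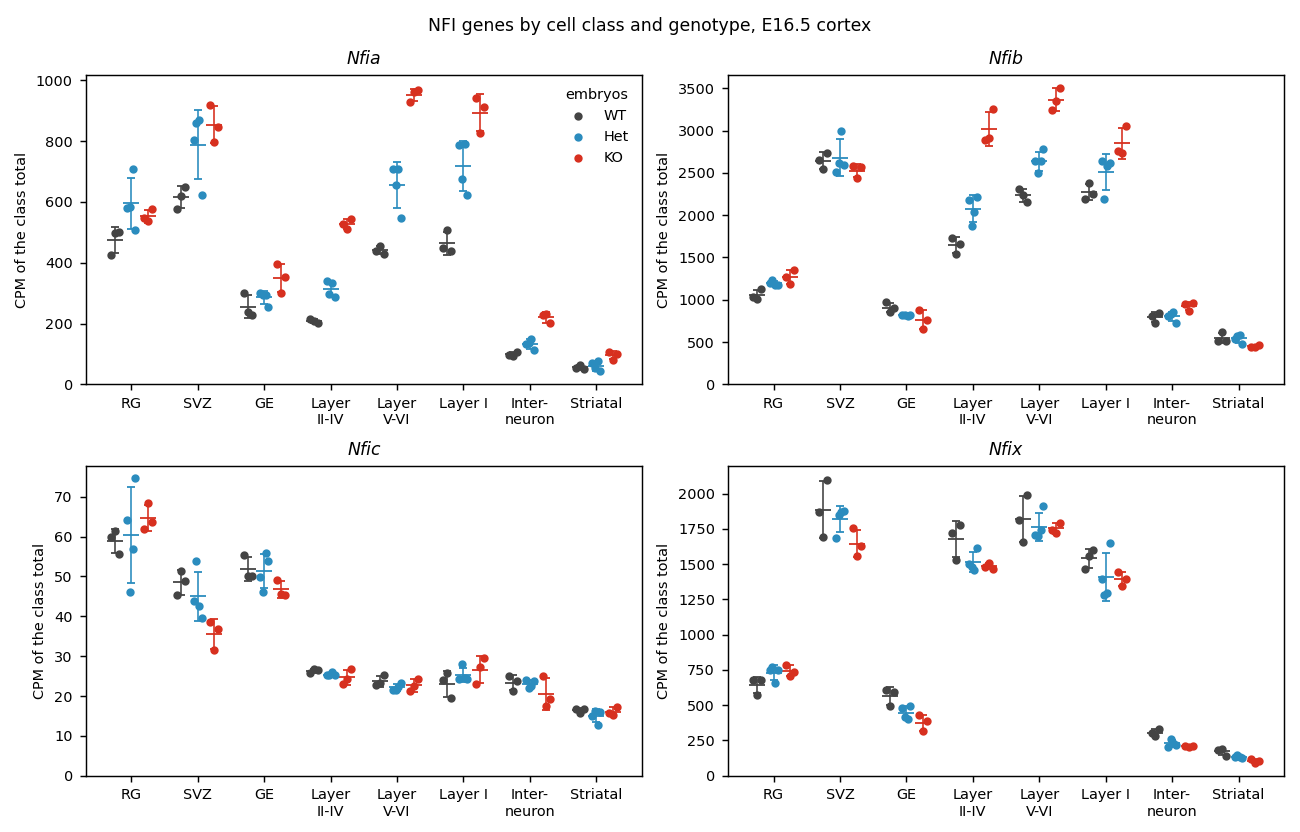
Level of each NFI gene in 8 marker-defined classes, in CPM of the class total, with a point per embryo coloured by genotype and a bar at the mean of each genotype. Nfia and Nfib stand higher in KO than in WT in the layer neurons, whereas Nfix stands lower in KO in the ganglionic eminence, interneuron and striatal classes, and Nfic is highest in the progenitor classes.

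Over all cells, Nfia and Nfib were lowest in WT, higher in Het and highest in KO, while Nfic and Nfix differed by less than the spread between embryos. Nfia stood at 283, 297 and 273 CPM in WT1 to WT3, at 458, 409, 456 and 362 in Het1 to Het4, and at 613, 566 and 603 in KO1 to KO3. The genotypes did not overlap, and of all genes tested 19.7% had no overlap between Het and WT, 51.5% between KO and WT and 27.3% between KO and Het of one prefix. Het4, the Het embryo with the WT prefix, was the lowest Het embryo and still above each WT embryo. Nfia rose 1.52-fold in Het vs. WT (log2 fold change 0.61, SE 0.0812, edgeR adjusted p = 0.00551) and 2.15-fold in KO vs. WT (1.11, SE 0.0866, adjusted p = 9.92e-06). Between KO and Het of one prefix it rose by 0.43 (SE 0.0541, adjusted p = 0.00203). The KO vs. WT change of Nfia lay above those of 98.6% of the genes tested.

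Nfib stood at 1667, 1583 and 1566 CPM in WT, at 1977, 1766, 1813 and 1969 in Het, and at 2392, 2305 and 2501 in KO. Again the genotypes did not overlap, and here Het4 was as high as the other Het embryos. Nfib rose by 0.27 in Het vs. WT (SE 0.0472, edgeR adjusted p = 0.0188), by 0.62 in KO vs. WT (SE 0.0504, adjusted p = 1.23e-05) and by 0.37 in KO vs. Het within the prefix (SE 0.0525, adjusted p = 0.00343), all on the log2 scale. These 2 of 4 members were called in each comparison, a call being an adjusted p below 0.05 together with a log2 fold change larger than 0.25 in size. Of all genes tested the same rule called 2.98% in Het vs. WT, 24.5% in KO vs. WT and 6.14% in KO vs. Het within the prefix. Het and KO were compared with the same WT embryos. With the prefix as a covariate the KO vs. WT calls remained (Nfia 0.79, adjusted p = 0.000968; Nfib 0.68, adjusted p = 0.000798), and both Het vs. WT calls were lost, Nfia moving to 0.36 and Nfib to 0.31 (adjusted p = 0.115 for each). These covariate values rest on Het4, which stood 0.35 (Nfia) and 0.29 (Nfib) above the WT mean on the log2 scale. The Het vs. WT call of Nfib was also lost when WT1, WT2, WT3 or Het1 was left out, over a range of 0.23 to 0.29. A mean over the 8 classes with equal weight, which has no test, gave 0.21 in KO vs. WT and 0.11 in KO vs. Het within the prefix for Nfib, under the size for a call, and 0.80 and 0.34 for Nfia.

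Nfix stood at 1361, 1198 and 1385 CPM in WT, at 1273, 1192, 1157 and 1328 in Het, and at 1263, 1172 and 1205 in KO, with overlapping genotypes. Nfic stood at 29.1, 28.9 and 29.9 in WT, at 28.9, 27.6, 28.2 and 30.4 in Het, and at 28.2, 26.8 and 29.1 in KO. Neither passed the test in any comparison, with log2 fold changes of −0.07 for Nfix (SE 0.0635, edgeR adjusted p = 0.402) and −0.02 for Nfic (SE 0.0391, adjusted p = 0.73) in KO vs. WT. All-cell values mix a change within cells with a change in the share of each class, and fewer cells of a type cannot be told apart there from less RNA per cell, so the classes are taken separately below.

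Within classes, 16 of the 32 pairs of member and class were called in KO vs. WT and 6 in Het vs. WT, and KO vs. Het within the prefix gave 7. The same rule called, among all genes in KO vs. WT, 19.2% in radial glia, 17.2% in the subventricular zone, 7.05% in the ganglionic eminence, 30.5% in Layer II-IV, 24.6% in Layer V-VI, 5.46% in Layer I, 6.43% in interneurons and 17.2% in striatal inhibitory cells. In Het vs. WT it called 1.75%, 0.967%, 0.355%, 6.98%, 2.08%, 0.152%, 0% and 2.72% in the same order, and in KO vs. Het within the prefix 2.5%, 3.42%, 0.209%, 12.4%, 10.7%, 1.22%, 0.394% and 0.781%. The 0% for interneurons in Het vs. WT stands beside 1585 genes with an unadjusted p under 0.05 in edgeR and 34 genes called by DESeq2. Genes whose embryos separate by genotype were counted over all cells alone, at 51.5% (KO and WT) and 19.7% (Het and WT). No such share was counted within a class or cluster, or for ratios of members. Separation of embryos there describes levels and does not set a member apart from other genes.

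**Figure D2:**
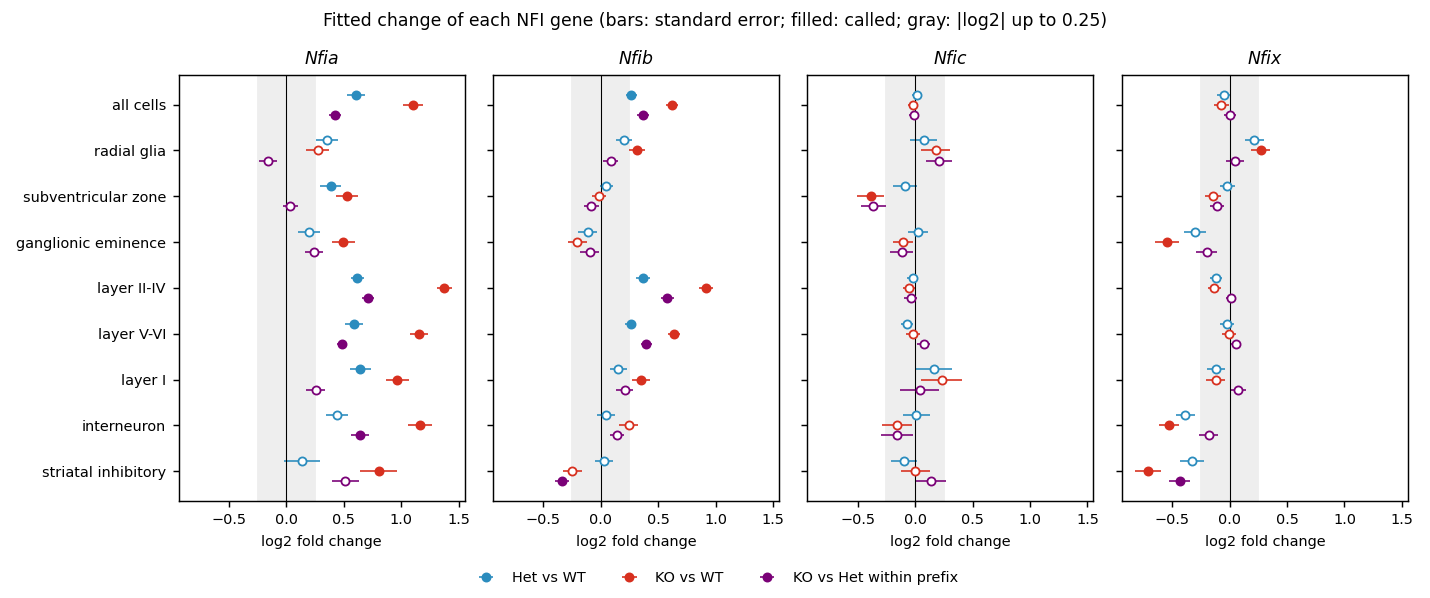
Log2 fold change of the 4 members in each class and over all cells (horizontal bars are ± 1 SE of the edgeR fit), for Het vs. WT, KO vs. WT and KO vs. Het within one library prefix, with filled points where the change was called. Nfia lies to the right of 0 in KO vs. WT in every class, Nfib mainly in the layer neurons, and Nfix lies to the left in the ganglionic eminence, interneuron and striatal classes.

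Nfia rose in KO vs. WT in 7 of 8 classes, and the largest changes were in the layer neurons and interneurons. In Layer II-IV-like neurons it stood at 215, 210 and 203 CPM in WT, at 340, 297, 332 and 287 in Het, and at 528, 511 and 543 in KO. The genotypes were fully separated, with Het between the others. The change was 2.60-fold in KO vs. WT (log2 1.38, SE 0.0616, edgeR adjusted p = 1.13e-09), 0.62 in Het vs. WT (adjusted p = 5.13e-05) and 0.71 in KO vs. Het within the prefix (adjusted p = 4.59e-07). In Layer V-VI-like neurons, the deep-layer neurons of the cortex, Nfia stood at 439.0, 455.4 and 429.3 CPM in WT, at 707, 654, 709 and 548 in Het, and at 927, 959 and 966 in KO. Here too no 2 genotypes overlapped. The log2 changes were 1.15 (KO vs. WT), 0.59 (Het vs. WT) and 0.48 (KO vs. Het within the prefix), all called.

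In interneuron-like cells Nfia stood at 98.1, 93.4 and 108 CPM in WT, at 131, 137, 150 and 113 in Het, and at 228, 231 and 201 in KO. The KO embryos stood well apart from the rest, at 2.24-fold the WT level (log2 1.16, SE 0.103, edgeR adjusted p = 0.000108). The step from Het to KO within the prefix was 0.64 (adjusted p = 0.0122) and was lost without Het2, KO1 or KO2. In the striatal inhibitory-like class, which a cortical dissection need not hold and which resembles striatal projection neurons, the WT embryos had 54.0, 64.5 and 50.1 CPM, the Het embryos 70.8, 52.8, 76.1 and 43.0, and the KO embryos 108, 81.6 and 98.5. WT and Het overlapped, and KO lay above both. Nfia rose by 0.81 in KO vs. WT there (SE 0.163, adjusted p = 0.00258), which moved to 0.16 (adjusted p = 0.841) with the prefix as a covariate, to 0.10 (adjusted p = 0.789) at resolution 0.8 and to 0.44 (adjusted p = 0.0559) with the members among the variable genes. KO vs. Het within the prefix was 0.51 (adjusted p = 0.0611) and not called, and its direction turned to −0.14 at resolution 0.8.

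In Layer I-like cells Nfia stood at 448, 507 and 438 CPM in WT, at 787, 676, 789 and 624 in Het, and at 942, 825 and 911 in KO. It rose by 0.97 in KO vs. WT (edgeR adjusted p = 3.52e-06) and by 0.64 in Het vs. WT (adjusted p = 0.00191), and this Het call was lost with the prefix as a covariate (0.43, adjusted p = 0.308). KO and Het of one prefix differed by 0.26 (adjusted p = 0.171). Layer I was the smallest of the 8 classes, with 48 to 111 cells in each embryo.

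The progenitors showed smaller Nfia changes. In subventricular zone-like cells the values were 577, 619 and 649 CPM in WT, 805, 858, 869 and 621 in Het, and 917, 797 and 846 in KO. Het4 stood within the WT range, and the Het embryos of the other prefix stood with the KO embryos. Nfia rose by 0.53 in KO vs. WT (SE 0.0970, edgeR adjusted p = 0.00109) and by 0.39 in Het vs. WT (adjusted p = 0.0461), while KO and Het of one prefix differed by 0.04 (adjusted p = 0.866). With the prefix as a covariate the KO vs. WT value moved to 0.08 and the Het vs. WT value to 0.04 (adjusted p = 0.814 and 0.955), and the Het call was also lost in 8 of the 10 fits that left out an embryo, with at most 5% mitochondrial UMIs and with only the 2 groups in the fit. In this class the summed CPM of the 13 radial glia markers ranged from 879 to 1090 over WT embryos, from 984 to 1297 over Het and from 1272 to 1640 over KO, 9 of them with a higher mean in KO than in WT, and their part in the Nfia values was not tested. In ganglionic eminence-like cells Nfia rose by 0.50 in KO vs. WT (adjusted p = 0.00781), from a WT mean of 256 CPM. That value moved to 0.25 with the prefix as a covariate (adjusted p = 0.788), and KO vs. Het within the prefix was 0.24 (adjusted p = 0.38).

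In radial glia-like cells, the stem cells of the cortex, Nfia stood at 425, 499 and 501 CPM in WT, at 581, 583, 708 and 507 in Het, and at 546, 537 and 577 in KO. All KO embryos were above all WT embryos, and Het3 was the highest of the 10. The KO vs. WT change of 0.27 did not pass the test (SE 0.101, edgeR adjusted p = 0.0662), and KO vs. Het within the prefix was −0.16 (adjusted p = 0.371). With the prefix as a covariate the KO vs. WT value was −0.07, whereas it was called without a filter on low counts, with the replicate block, with only the 2 groups in the fit and without integration (0.27 to 0.31).

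Nfib rose mainly in the layer neurons. In Layer II-IV it stood at 1735, 1544 and 1657 CPM in WT, at 2180, 1868, 2034 and 2217 in Het, and at 2891, 2911 and 3251 in KO, with no overlap between genotypes. The change was 1.89-fold in KO vs. WT (log2 0.92, SE 0.0635, edgeR adjusted p = 7.58e-08), 0.37 in Het vs. WT (adjusted p = 0.00244) and 0.58 in KO vs. Het within the prefix (adjusted p = 7.60e-06). In Layer V-VI it stood at 2307, 2235 and 2156 in WT, at 2639, 2496, 2634 and 2777 in Het, and at 3237, 3346 and 3508 in KO. The genotypes were again separated, and Het4 was the highest Het embryo. The log2 changes were 0.64 (KO vs. WT), 0.26 (Het vs. WT) and 0.40 (KO vs. Het within the prefix), all called, the Het vs. WT call being lost without WT2, WT3 or Het4, at resolution 0.8 (0.25), without integration (0.21) and with the replicate block (0.24).

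In Layer I, Nfib rose by 0.35 in KO vs. WT (SE 0.0784, edgeR adjusted p = 0.00989), a call lost without WT1, WT3 or KO3, with doublets removed (0.22, adjusted p = 0.0975) and with the prefix as a covariate (0.42, adjusted p = 0.112). KO vs. Het within the prefix was 0.21 (adjusted p = 0.27). In radial glia-like cells it stood at 1038, 1008 and 1129 CPM in WT, at 1194, 1236, 1175 and 1177 in Het, and at 1272, 1183 and 1348 in KO. Every Het and KO embryo was above every WT embryo, and Het and KO overlapped. The KO vs. WT rise was 0.31 (adjusted p = 0.00521) and was not called with the prefix as a covariate (0.24, adjusted p = 0.322) or between KO and Het of one prefix (0.09, adjusted p = 0.63). By contrast, the subventricular zone gave −0.01 (adjusted p = 0.914), from 2656, 2540 and 2737 CPM in WT and 2579, 2436 and 2567 in KO. The interneuron class gave 0.24 and the ganglionic eminence −0.20 in KO vs. WT, neither called (edgeR adjusted p = 0.097 and 0.144). In striatal inhibitory-like cells Nfib was at 512, 614 and 512 in WT, at 541, 575, 581 and 475 in Het, and at 439, 445 and 466 in KO. The KO embryos lay below all WT embryos here: −0.25 in KO vs. WT, with an adjusted p of 0.0448 but a change under the minimum size, and −0.34 in KO vs. Het within the prefix (adjusted p = 0.0130), a call lost without Het2 or Het3, at resolution 0.8 and with all 10 embryos in the fit.

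Nfix was called lower in KO vs. WT in all 3 inhibitory classes, and within the prefix in the striatal class alone. In striatal inhibitory-like cells it stood at 182, 192 and 143 CPM in WT, at 136, 148, 132 and 122 in Het, and at 118, 86.4 and 104 in KO. KO lay below all WT and Het embryos, and WT and Het overlapped. Nfix fell by 0.71 on the log2 scale in KO vs. WT (SE 0.114, edgeR adjusted p = 0.000487). Within the prefix the KO vs. Het change was −0.43 (adjusted p = 0.0370), a call lost without Het1, Het2, Het3, KO2 or KO3, with doublets removed, with at most 5% mitochondrial UMIs and with all 10 embryos in the fit. In interneuron-like cells it stood at 302, 281 and 334 CPM in WT, at 205, 261, 235 and 214 in Het, and at 212, 204 and 210 in KO. All Het and KO embryos were below all WT embryos, and Het and KO overlapped. The KO vs. WT change was −0.53 (adjusted p = 0.0071) and was not called with the prefix as a covariate (−0.69, adjusted p = 0.125). The Het vs. WT change was −0.39 and did not pass the adjusted test (adjusted p = 0.243). Nor did KO vs. Het within the prefix, at −0.18 (adjusted p = 0.584), though at resolution 0.8 it was −0.43 and called (adjusted p = 0.0335).

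In ganglionic eminence-like cells, the dividing progenitors of inhibitory neurons, Nfix stood at 609, 496 and 591 CPM in WT, at 481, 414, 400 and 496 in Het, and at 428, 315 and 384 in KO. The KO embryos were below all WT embryos, and they overlapped with Het. The change in KO vs. WT was −0.55 (SE 0.105, edgeR adjusted p = 0.00532), and −0.38 with the prefix as a covariate (adjusted p = 0.646). KO vs. Het within the prefix was −0.20 and not called (adjusted p = 0.64). In this class the 6 oligodendrocyte precursor markers summed to between 60.0 and 104 CPM in WT, 41.6 and 51.5 in Het, and 25.4 and 35.4 in KO. Of these markers 2 had a higher mean in KO, and their part in the member values was not tested. Radial glia were the class in which Nfix rose, by 0.27 in KO vs. WT (adjusted p = 0.0355), from 677, 574 and 676 CPM in WT to 786, 710 and 738 in KO, while within the prefix the value was 0.05 (adjusted p = 0.856). That call was lost without WT2, WT3, KO1, KO2 or KO3, with at most 5% mitochondrial UMIs and with the prefix as a covariate (adjusted p = 0.385). In the layer classes Nfix gave KO vs. WT values from −0.13 to −0.01, none of which passed.

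Nfic was called once, in the subventricular zone. It stood there at 45.2, 51.4 and 49.0 CPM in WT, at 43.9, 54.0, 42.7 and 39.6 in Het, and at 38.5, 31.5 and 36.8 in KO. The KO embryos lay below all others, and Het and WT overlapped. Nfic fell by 0.39 in KO vs. WT (SE 0.114, edgeR adjusted p = 0.0237), a call lost without WT2, WT3, KO2 or KO3 and with the members among the variable genes (−0.30), and KO vs. Het within the prefix was −0.36 (adjusted p = 0.0879). With the prefix as a covariate the KO vs. WT value was −0.63 (adjusted p = 0.0658).

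The summed levels of markers of other cell types also differed between genotypes in the layer classes. In Layer V-VI the 13 radial glia markers summed to between 556 and 647 CPM in WT embryos, 613 and 747 in Het and 809 and 889 in KO, 9 of them with a higher mean in KO, and the 17 interneuron markers to between 220 and 251, 223 and 245, and 106 and 148. In Layer II-IV the interneuron markers summed to between 144 and 175, 109 and 120, and 68.1 and 79.1 CPM, with 2 of 17 higher in KO. The radial glia markers summed there to between 713 and 782, 693 and 733, and 660 and 676, though 7 of 13 had a higher mean in KO. Their part in the member values was not tested.

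Whether these changes differed between classes was tested as the class by genotype term of an edgeR fit with the embryo as a block, setting each of 4 classes against Layer II-IV. In KO vs. WT, 8 of 16 terms were called for the members, where the same rule called 11.4% of all genes for radial glia, 9% for the subventricular zone, 9.72% for Layer V-VI and 6.47% for interneurons. The Nfia change in radial glia was smaller than in Layer II-IV by 1.08 on the log2 scale (SE 0.0880, adjusted p = 2.24e-08), and in the subventricular zone by 0.83 (adjusted p = 8.33e-09). The interneuron change of Nfia differed by −0.21 (adjusted p = 0.206) and was not called. Nfib changed less than in Layer II-IV in all 4 classes, by 0.58 in radial glia, 0.91 in the subventricular zone, 0.29 in Layer V-VI and 0.67 in interneurons (adjusted p of 2.23e-05, 7.87e-11, 8.26e-05 and 0.000384). The Layer V-VI call was lost without WT2, at −0.23. For Nfix the radial glia term was 0.43 (adjusted p = 0.000382) and the interneuron term −0.39 (adjusted p = 0.0126, lost without WT3 or KO2).

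Within the prefix, KO vs. Het, 5 of 16 terms were called, against 3.43%, 3.9%, 5.12% and 2.84% of all genes in the same order of classes. The Nfia terms were −0.88 for radial glia and −0.67 for the subventricular zone (edgeR adjusted p = 1.54e-06 and 3.18e-08). The Nfib terms were −0.50 for radial glia, −0.65 for the subventricular zone and −0.45 for interneurons (adjusted p = 0.000133, 4.48e-08 and 0.00221). The smaller changes of Nfia and Nfib in progenitors than in the Layer II-IV class were thus seen in embryos that share a prefix. That class mixes clusters whose shares differ between genotypes, as given next. In its cluster 0 alone, Nfib rose by 0.37 in KO vs. WT and 0.18 within the prefix, beside 0.31 and 0.09 in radial glia. In cluster 1 Nfib rose by 1.07 and 0.78. Nfia rose by 1.23 and 0.53 in cluster 0, beside 0.27 and −0.16 in radial glia. The part of the mix in the class terms was not tested.

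The Layer II-IV class was made of 3 clusters whose shares differed between genotypes. Cluster 0 was led by Unc5d, a naming marker of Layer II-IV, and Sstr2, a naming marker of the subventricular zone class, among others. It held 40.9% ± 3.63 of the class in WT, 48.0% ± 3.49 in Het and 59.3% ± 3.90 in KO. Cluster 1 held 45.8%, 39.9% and 34.1% in the same order, and cluster 13, led by Inhba, held 13.2%, 12.2% and 6.62%. The cluster with most cells of the class was thus cluster 1 in WT and cluster 0 in KO, so each was also fitted alone, an analysis added after these shares were seen. Values of the whole class, the ratios and detection shares below included, hold this change of mix. In cluster 0, Nfia went from 344 ± 25.1 CPM in WT to 773 ± 9.61 in KO (log2 1.23), and Nfib from 3044 ± 61.8 to 3780 ± 184 (0.37), both called, where 26% of all genes were. Within the prefix, KO vs. Het gave 0.53 for Nfia, called, and 0.18 for Nfib, under the size for a call (edgeR adjusted p = 0.0138), where 7.16% of all genes were called. In cluster 1, Nfia went from 160 ± 6.92 to 334 ± 12.2 (1.09) and Nfib from 1156 ± 41.3 to 2368 ± 118 (1.07), both called, where 26.8% of genes were, and within the prefix they rose by 0.58 and 0.78, both called, where 10.8% of genes were. Nfix fell there, from 1814 ± 78.2 to 1375 ± 35.2 CPM (−0.37, called), with −0.18 within the prefix, which was not called. In the class as a whole every KO embryo also lay below every WT embryo, at −0.13 on the log2 scale, which was not called.

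In cluster 13, the smallest of the 3 with 281 KO cells, the members parted. Nfib rose by 1.73 in KO vs. WT and by 1.21 in KO vs. Het within the prefix, Nfix fell by 0.74 and by 0.38, and each of these was called. Nfia went the other way from Nfib, at −0.40 in KO vs. WT (edgeR adjusted p = 0.0502) and −0.37 within the prefix (adjusted p = 0.0587), neither called. In this cluster 17.2% of all genes were called in KO vs. WT and 5.33% in KO vs. Het within the prefix.

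**Figure D3:**
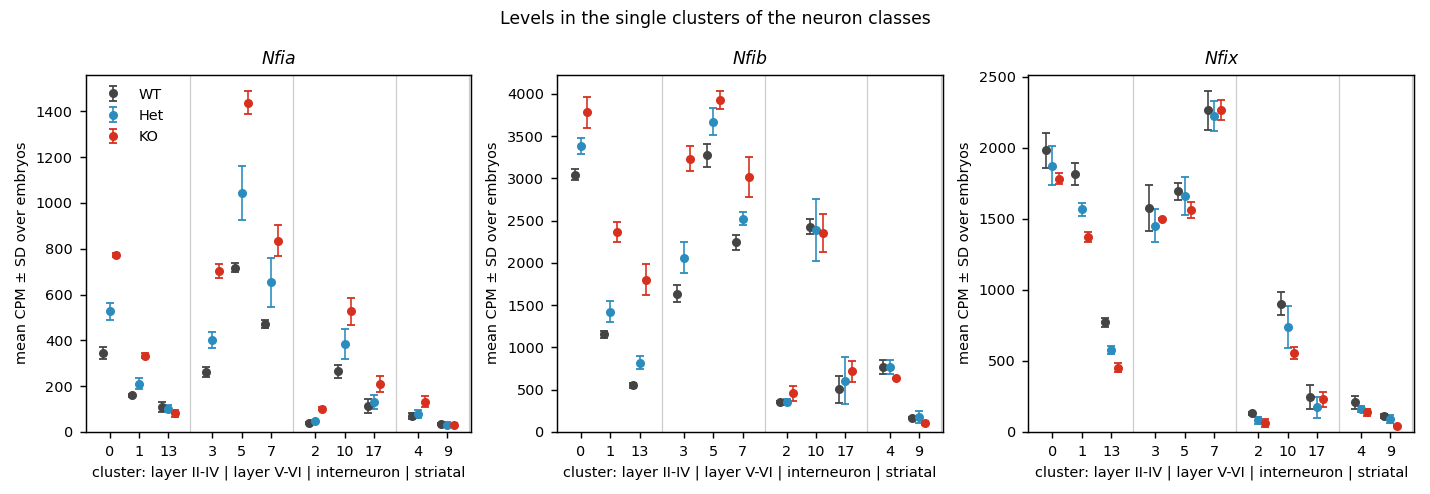
Level of Nfia, Nfib and Nfix in each cluster of the layer, interneuron and striatal classes, in mean CPM over embryos with bars of ± 1 SD, by genotype. In cluster 13 Nfib stands higher and Nfia and Nfix lower in KO than in WT, while in clusters 0 and 1 both Nfia and Nfib stand higher in KO.

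Nfib was called higher in KO vs. WT in each of the 3 Layer V-VI clusters. In cluster 3 it went from 1634 ± 101 CPM in WT to 3234 ± 148 in KO (log2 1.03), and in cluster 5, led by the corticothalamic markers Hs3st4 and Tle4, it went from 3273 ± 134 to 3926 ± 106 (0.33). The change in cluster 7 was 0.46. Within the prefix the Nfib values were 0.73 in cluster 3 and 0.27 in cluster 7, both called, and 0.14 in cluster 5, not called (edgeR adjusted p = 0.184). Nfia rose in each of the 3 clusters, by 1.47 in cluster 3, 1.07 in cluster 5 and 0.86 in cluster 7. These KO vs. WT changes were all called, where 24%, 23.6% and 18.3% of all genes were. Within the prefix the Nfia values were 0.77, 0.43 and 0.25, all called, where 11.3%, 10.4% and 5.54% of all genes were. The difference between clusters was not tested.

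Among interneuron-like clusters, Nfix fell in both of the larger ones. In cluster 10, led by Adarb2, Htr3a and Prox1, markers of interneurons from the caudal ganglionic eminence, it went from 902 CPM in WT to 558 in KO, with log2 changes of −0.67 in KO vs. WT and −0.48 in KO vs. Het within the prefix, both called, where 6.49% and 1.15% of all genes were. In cluster 2 it went from 131 ± 12.5 to 62.5 ± 28.0 CPM (−1.03, called), and the step within the prefix was −0.39 and not called. In cluster 17, the smallest, Nfix was at −0.07 in KO vs. WT and at 0.62 within the prefix. Neither was called, where 0.0647% and 0.0196% of all genes were. Nfia rose by 1.02 in cluster 10 and by 1.36 in cluster 2, where 16.7% of all genes were called. Within the prefix it rose by 0.37 in cluster 10 and by 0.99 in cluster 2, where 3.1% of all genes were called. Nfib in cluster 2 rose by 0.38 in KO vs. WT, called, and by 0.34 within the prefix, not called. In clusters 10 and 17 Nfib was called in neither comparison. In the striatal cluster 9 Nfix went from 114 to 40.1 CPM (−1.49), and within the prefix it fell by 1.36, both called, where 7.45% and 0.261% of all genes were. Nfix was also lower in KO outside the neural classes. Erythroid-like cells had 65.5 ± 18.5 CPM in WT and 23.9 ± 19.3 in KO. Microglia-like cells had 259 ± 57.0 and 112 ± 64.3, with Het embryos from 20.2 to 322 and 21 to 44 cells in each embryo. The mean of Nfib was lower there as well. It was 101 ± 34.5 in WT and 53.7 ± 63.4 in KO in erythroid-like cells, and 469 ± 64.6 and 138 ± 131 in microglia-like cells. Whether RNA from other cells had a part in the low Nfix and Nfib values was not tested. Nfia in cluster 9 was at −0.22 in KO vs. WT and not called. In the other striatal cluster, cluster 4, Nfia rose by 0.98, and by 0.62 within the prefix, where 15.3% and 0.415% of all genes were called. Nfix in cluster 4 was at −0.55 in KO vs. WT, called, and at −0.22 within the prefix, not called (edgeR adjusted p = 0.55).

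The balance among members differed between genotypes. In Layer II-IV the ratio of Nfib to Nfix UMIs was 0.983 ± 0.0441 in WT, 1.37 ± 0.0799 in Het and 2.03 ± 0.161 in KO, without overlap between genotypes. In interneurons the ratio of Nfia to Nfix was 0.327 ± 0.00487, 0.582 ± 0.0654 and 1.05 ± 0.0915 in the same order, also without overlap. Between KO and WT these are log2 differences of 1.05 and 1.69 (2-sided exact permutation p = 0.1 for each, the smallest that 3 embryos against 3 allow). In radial glia the 2 ratios differed by 0.04 (exact permutation p = 0.6) and 0.01 (p = 1), well within the spread of embryos.

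The Nfia change was also present in the share of cells in which it was detected. Cells with at least 3000 UMIs were thinned to that number, which left out 29 of 6047 Layer II-IV-like cells in WT, 12 of 6156 in Het and 5 of 4231 in KO. After thinning, Nfia was detected in 37.8% ± 1.67 of Layer II-IV-like cells in WT, in 48.5% ± 2.60 in Het and in 65.5% ± 1.86 in KO. Without thinning the shares were 70.8%, 77.9% and 89.3%, at median depths of 14795, 16445 and 17543 UMIs. Erythroid-like cells, which should lack the gene, gave 4.17%, 2.82% and 2.04% after thinning, which left out 147 of 619, 81 of 609 and 50 of 338 of them, at median depths of 8382.5, 9702.5 and 10181 UMIs.

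Most of the genes that NFI factors are reported to switch on in glia were lower in KO than in WT in radial glia-like cells. Of 16 such genes 14 could be tested in that class, and in KO vs. WT 9 were called lower and 2 higher, with a median log2 fold change of −0.74 beside −0.0058 over all genes, of which 10.1% were called lower and 9.02% higher. Slc1a2, a glutamate transporter of astrocytes, stood at 103, 172 and 140 CPM in WT, at 64.7, 104, 117 and 93.2 in Het, and at 36.8, 29.8 and 41.5 in KO, so that KO lay below every other embryo (−1.88, called). Aqp4, the water channel of astrocyte endfeet, stood at 20.5, 53.0 and 22.2 in WT and at 9.10, 6.72 and 9.90 in KO (−1.85, called). Gfap, the intermediate filament of astrocytes, was scarce, at 2.46, 4.19 and 4.63 CPM in WT and 1.01, 0 and 0.461 in KO, too few for its called change to be given a size. The transporter Slc1a3 (−0.72), Tnc (−0.97), Sparcl1 (−1.02), Aldh1l1 (−0.77), Mmd2 (−0.42) and Fabp7 (−0.36) were also called lower.

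The 2 called higher were Hopx, a marker of outer radial glia, and Id4, an inhibitor of basic helix-loop-helix factors. Hopx stood at 50.1, 101 and 72.3 CPM in WT, at 124, 126, 137 and 66.7 in Het, and at 134, 162 and 135 in KO (0.96). Het4 was with the WT embryos and the other Het embryos were near KO, and KO vs. Het within the prefix was 0.16 and not called. Id4 rose by 0.75. Within the prefix, 8 of 13 tested genes were called lower in KO vs. Het and none higher, with a median of −0.51, where 1.63% of all genes were called lower and 0.864% higher. The number called lower was 5 without Het2, KO1 or KO2, and 6 to 9 without one of the others. In Het vs. WT none of the 14 was called in edgeR. Aldoc, Slc1a3 and Hopx also belong to the markers that named the class.

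**Figure D4:**
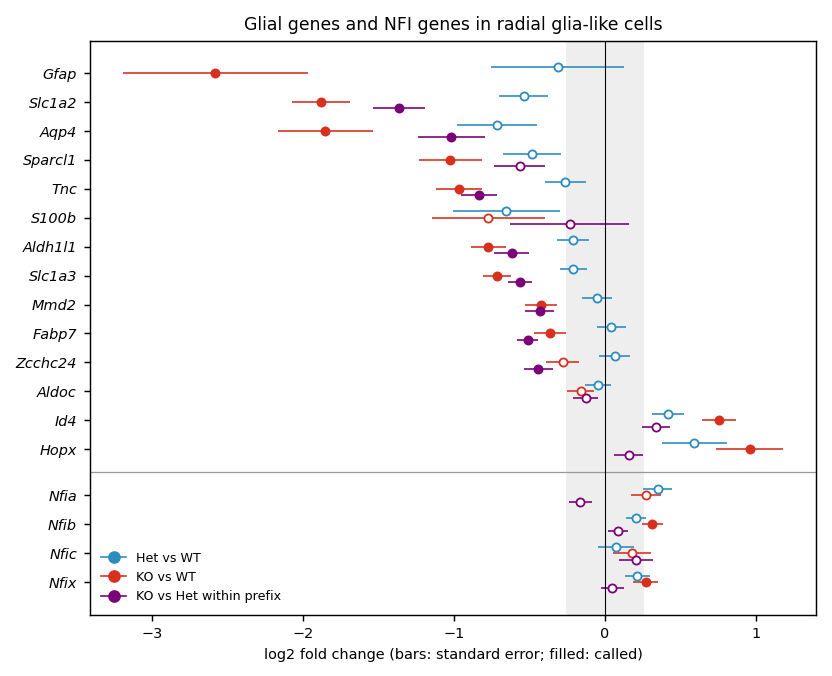
Log2 fold change in radial glia-like cells of the genes reported to be raised by NFI factors in glia (bars are ± 1 SE of the edgeR fit), for Het vs. WT, KO vs. WT and KO vs. Het within one prefix, with filled points where called. Most genes lie to the left of 0 in both comparisons with KO, with Slc1a2 and Aqp4 among the farthest, while Hopx and Id4 lie to the right in KO vs. WT.

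The radial glia-like class was a single cluster that also held oligodendrocyte precursor-like cells. Its 13 own markers summed to 8599 CPM, above 2017 in the next class, yet Olig1 was among its 10 leading genes. The summed CPM of 6 oligodendrocyte precursor markers in it ranged from 558 to 721 in WT and from 294 to 719 in Het, against 263 to 290 in KO, and each of the 6 had a lower mean in KO. At a finer clustering (resolution 0.8), those precursors formed a cluster of 146 cells of their own, and the sum in the remaining radial glia-like cells ranged from 273 to 298 in WT and from 131 to 397 in Het, against 96.3 to 166 in KO. There 7 of the 14 glial genes were called lower and 2 higher in KO vs. WT, where 8.44% of all genes were called lower and 7.66% higher, the calls of Mmd2 (−0.39) and Fabp7 (−0.27) being lost, and Slc1a2 was at −1.86 and Aqp4 at −1.86. Within the prefix 8 of 12 tested genes were called lower and 0 higher at this resolution, where 1.79% and 0.926% of all genes were, with Mmd2 (−0.46) and Fabp7 (−0.51) among the 8. Nfib (0.35, edgeR adjusted p = 0.0106) and Nfix (0.26, adjusted p = 0.0405) were still called. Whether precursors that remained had a part in the glial values was not tested. With the prefix as a covariate 7 of the 14 were called lower and 1 higher in KO vs. WT at the main resolution, where 1.76% and 1.13% of all genes were.

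Of 10 genes that act upstream of NFI genes in gliogenesis, 2 were called in radial glia in KO vs. WT, a share near the 19.2% of all genes, and the list median was 0.099. These were Jag1, a Notch ligand, which rose by 0.89, from 22.2, 13.6 and 23.2 CPM in WT to 38.0, 37.8 and 27.9 in KO, and Hes5, a Notch target, which fell by 0.65. Within the prefix neither was called (0.11 and −0.33, edgeR adjusted p = 0.841 and 0.125), and 1 of the 10 was, where 2.5% of all genes were: Hes1, another Notch target, named here after its value was seen, rose by 0.51 (adjusted p = 0.0113). The Hes1 call was lost without KO3. With 1 embryo left out, the number called higher in KO vs. WT was 2 without WT2, 0 without KO1 or KO2 and otherwise 1. Over all cells 6 of the 10 were called in KO vs. WT, where 24.5% of all genes were: Notch1 (0.53), its ligands Dll1 (0.69) and Jag1 (0.52), and Sox9 (0.50), a factor that switches on Nfia in the spinal cord, were called higher, and Pou3f2 (−0.35) and Zbtb20 (−0.35) lower. In radial glia Notch1, Dll1, Sox9, Pou3f2 and Zbtb20 were not called. All-cell values also carry the share of each class. The radial glia-like class held 465 cells in WT and 501 in KO, and the subventricular zone-like class 738 and 1101. Kept cells per embryo were 7159 to 8103 in WT and 5147 to 6176 in KO. The part of these shares in the all-cell values was not tested. Within the prefix 2 of the 10 were called over all cells, Dll1 higher (0.42, edgeR adjusted p = 0.00705) and Zbtb20 lower (−0.36, adjusted p = 0.0134), where 6.14% of all genes were.

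Of the genes that NFI factors are reported to lower in progenitors, 4 could be tested in radial glia and 2 were called, both higher, where 9.02% of all genes were called higher: Ezh2 (0.37), the histone methyltransferase of Polycomb complex 2, and Bbx (0.34). Within the prefix neither was called (0.13 and 0.22, edgeR adjusted p = 0.485 and 0.277), and Hes1, which is on both lists, was the 1 of 4 that was. That call was lost without KO3. In KO vs. WT, with 1 embryo left out, the number called higher was 3 without WT2, 1 without KO3 and otherwise 2. Of the genes reported to be raised by NFI factors in neurons and intermediate progenitors, 7 could be tested. In radial glia 1 was called in KO vs. WT, Chl1, an adhesion molecule, which fell by 1.14, a share of the list near the 19.2% of all genes. Over all cells 2 of 7 were called, near the 24.5% of all genes: Eomes, which marks intermediate progenitors, rose by 0.91, and Robo1, an axon guidance receptor, by 0.46. None of these 3 was called in KO vs. Het within the prefix, with Chl1 at −0.22 in radial glia (edgeR adjusted p = 0.747), and Eomes at 0.27 (adjusted p = 0.323) and Robo1 at 0.17 (adjusted p = 0.076) over all cells. In the subventricular zone class itself, where Eomes is a naming marker, neither was called in KO vs. WT, with Eomes at 0.23 (edgeR adjusted p = 0.0215, under the size for a call) and Robo1 at −0.28 (adjusted p = 0.271), and this class made up 3.07% to 3.32% of the cells of WT embryos and 5.81% to 6.69% of those of KO embryos.

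The genes most like each member across the 8 classes in WT were ranked by Pearson correlation of log2(CPM + 1) over the class means of the same libraries, as a description over 8 points. Nfib and Nfix were the nearest to each other among 17632 genes (r = 0.968). Nfib was next followed by Necab3, Mpv17l2, Mtch2 and Acyp1 (r of 0.963 to 0.917), and Nfix by Mtch2, Ppp2r1b, Necab3 and Acyp1 (0.922 to 0.908). The genes nearest to Nfia were Sdcbp (0.947), Lef1, Mrps12, Cacybp and Rangrf, and those nearest to Nfic were Ptpn21 (0.975), Tbccd1, A930033M14Rik, Xrcc6 and Cbfb. Nfib and Nfic were apart, with r = 0.175.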

How the data were processed

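Libraries from 10 embryos were used, 1 library per embryo. The values are raw UMI counts per gene and cell that the authors deposited after alignment to mm10 with Cell Ranger (6.0.2 per the file headers), and no normalization had been applied to them. Groups come from the sample labels. The cell filter follows the study's methods. Barcodes shared between libraries were kept.

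Cells were clustered with Seurat 5.3.0 (reciprocal PCA integration of embryos, 2000 variable genes, 30 components, resolution 0.4). Sex-linked, hemoglobin and ribosomal RNA genes, Gatad2b and the 4 members were left out of the variable genes. A cluster took the name of the marker list with the highest mean score (at least 3 markers detected), unless another list had more markers among its 10 leading genes, and was left unnamed where lists tied, where leading genes went against the name or where most cells were marked as doublets. Doublets were scored with Scrublet, whose own thresholds marked 0.0341% to 2.53% of cells, so the expected share (4.80% to 8.31%) was marked and removed in an alternative only.

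UMIs were summed per embryo and class (at least 20 cells in each embryo) and tested with edgeR 4.0.16 (R 4.3.3, filterByExpr, TMM, quasi-likelihood F-test, Benjamini-Hochberg over all genes tested). Het vs. WT and KO vs. WT came from 1 fit of all 10 embryos, and KO vs. Het within the prefix from the 6 embryos that share it. The SE is the absolute log2 fold change over the square root of F. A changed share of cells was read after thinning to 3000 UMIs. The cell-level test of the study was replaced, since cells of 1 embryo are not replicates. Alternatives were DESeq2 1.42.0, other size factors, no filter on low counts, a replicate block, the prefix as a covariate, other cell filters, doublet removal, other clusterings, other samples in the fit, and each embryo left out. On simulated counts with 1.5-fold changes, the fits recovered 66.5% of changed genes over all cells, 80% in Layer II-IV and 54.5% in radial glia in KO vs. WT. The class by genotype term against Layer II-IV recovered 25% for radial glia and 54.8% for Layer V-VI. The simulated counts held no difference between prefixes.

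The members and the gene lists were chosen with earlier results of these data known. Genes named are the members, Gatad2b, genes of 4 lists (upstream of NFI genes, raised in glia, lowered in progenitors, raised in neurons and intermediate progenitors) that were called in KO vs. WT in radial glia or over all cells, and the 5 genes most correlated with each member. Strand settings of the counting are not given in the sources used here. Genes on the other strand overlap Nfia (E130114P18Rik, 23349 UMIs in all) and Nfib (Gm11266, 18723, and Gm11269, 3). Others overlap Nfix (Lyl1, 601, and G430095P16Rik, 609) and Nfic (Gm16104, 306). Whether reads were shared with these genes was not tested.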

Additional observations from a re-analysis of the deposited data

Results flagged for a closer look

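The change of a member differed between a class and Layer II-IV at an adjusted p under 0.05 in 17 comparisons, tested as the class by genotype term in edgeR. For KO vs. WT the log2 differences for radial glia were −1.08 (Nfia), −0.58 (Nfib) and 0.43 (Nfix), and for the subventricular zone −0.83 (Nfia) and −0.91 (Nfib). For Layer V-VI they were −0.23 (Nfia), −0.29 (Nfib) and 0.12 (Nfix), of which the first and last are under the size of 0.25 used for a call, and for interneurons −0.67 (Nfib) and −0.39 (Nfix). For KO vs. Het within the prefix they were −0.88 (Nfia) and −0.50 (Nfib) for radial glia, −0.67 (Nfia) and −0.65 (Nfib) for the subventricular zone, −0.23 (Nfia) and −0.18 (Nfib) for Layer V-VI, both under that size, and −0.45 (Nfib) for interneurons.

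One Het embryo stood apart from the other 3 in 5 of 36 groups of 4 tested, where chance gives about 5%. Nfia in the ganglionic eminence was 255 CPM in Het4, against 294 to 299.6 in the others. Nfib in Layer I was 2195 CPM in Het2, against 2577 to 2639. Nfic in Layer II-IV was 25.9 CPM in Het3, against 25.2 in each of the others. Nfic in Layer I was 28.0 CPM in Het2, against 24.2 to 24.6. Nfix in the subventricular zone was 1686 CPM in Het1, against 1850 to 1874.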

How the results depend on the processing

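Over all cells, Nfia and Nfib kept their direction under every alternative run, and their calls in KO vs. WT and in KO vs. Het within the prefix were kept in each alternative that had a test. With the prefix as a covariate, Nfia in Het vs. WT was 0.36 and Nfib 0.31, neither called, and Nfix turned to 0.029 in Het vs. WT, Nfic to 0.053 and Nfix to 0.033 in KO vs. WT, and Nfia in radial glia to −0.072. With at most 5% mitochondrial UMIs, Nfib in Het vs. WT was 0.24, under the size for a call, and Nfix in KO vs. Het −0.0097. Leaving out 1 embryo gave 0.23 to 0.29 for Nfib in Het vs. WT. It gave −0.0056 to 0.0230 for Nfic in Het vs. WT, −0.0378 to 0.00252 for Nfic in KO vs. WT, −0.0316 to 0.0123 for Nfic in KO vs. Het, and −0.0390 to 0.0459 for Nfix in KO vs. Het, values around 0 that changed sign. With doublets removed, Nfic in Het vs. WT was −0.00097 and Nfix in KO vs. Het −0.0026, and with all 10 embryos in the fit the latter was −0.023. Weighting classes equally, which has no test, gave 0.39, 0.80 and 0.34 for Nfia and 0.10, 0.21 and 0.11 for Nfib in Het vs. WT, KO vs. WT and KO vs. Het, the Nfib values all under the size for a call, −0.16, −0.28 and −0.10 for Nfix, and −0.079 for Nfic in KO vs. WT.

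Genes called over all cells in Het vs. WT were 525, and 1002 with DESeq2, 41 with the prefix as a covariate, 159 with only the 2 groups in the fit and 74 to 1829 with 1 embryo left out. In KO vs. WT they were 4326, and 1467 with the prefix as a covariate. In KO vs. Het within the prefix they were 1054, and 569 to 1268 with 1 embryo left out. Members called over the 8 classes in Het vs. WT were 6, and 10 with DESeq2 or 11 without a filter on low counts. In KO vs. WT they were 16, and 8 with the prefix as a covariate, and in KO vs. Het within the prefix they were 7, and 4 to 6 with 1 embryo left out. The cause of these moves was not tested.

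Replicate numbers do not mark a shared litter or day in the labels, and same-numbered embryos did not deviate together (r of −0.299 to 0.122). With the replicate block, genes called in Het vs. WT were 1850 and Nfic in Het vs. WT was −0.0060.

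At resolution 0.8 the span from highest to lowest class was 10.7-fold for Nfib and 18.2-fold for Nfix, Nfib in interneurons turned to −0.014 and Nfia in striatal cells to −0.14, both in KO vs. Het. With clusters alone, chosen after seeing the data, Nfia turned to −0.22 in KO vs. WT in striatal cluster 9, and in cluster 13 to −0.081, −0.40 and −0.37 in Het vs. WT, KO vs. WT and KO vs. Het. Of values for members within classes, 538 of 597 under other settings and 409 of 450 with 1 embryo left out kept their direction and call.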

Other observations

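The highest WT levels of Nfia, Nfib and Nfix in any cluster were in one that no marker list could name, cluster 20, of 747 cells, led by Tac2, Tesc, Prox1 and Lhx9. In WT it held 1002 ± 26.5 CPM of Nfia, 3733 ± 82.2 of Nfib and 3082 ± 263 of Nfix (SD, n = 3). In KO embryos the values were 1559 ± 193, 4603 ± 446 and 3208 ± 254. The WT and KO ranges did not overlap for Nfia and Nfib and overlapped for Nfix, and no test was run in this cluster. Over all cells 51.5% of all genes had no overlap between KO and WT, and the share in this cluster was not counted. Outside the neural classes, mural and meningeal-like cells had the highest Nfic level of the named classes, at 105 ± 11 CPM in WT and 105 ± 20.6 in KO. Nfix in these cells was at 117, 153 and 293 CPM in WT, at 33.5, 102, 81.8 and 116 in Het, and at 29.6, 80.1 and 61.0 in KO. KO lay below all WT embryos in this class of 327 cells, in which no test was run. The share of all genes without overlap was not counted in it. Nfix was also lower in KO in erythroid-like cells, at 65.5 CPM in WT and 23.9 in KO, and in microglia-like cells, at 259 and 112. The lower mean was not particular to Nfix. Nfib stood at 101 and 53.7 CPM in erythroid-like cells, at 469 and 138 in microglia-like cells and at 377 and 276 in mural and meningeal-like cells.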
